A study of Mus musculus with 12 samples.

Results

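The 10 genes described here encode the enzymes that make prostaglandins, the receptors that read them and the enzyme that starts their breakdown. They were chosen by name: the cyclooxygenases Ptgs1 and Ptgs2, the terminal synthases Ptges, Ptgis and Ptgds, the receptors Ptger2, Ptger4, Ptgfr and Ptgir, and the dehydrogenase Hpgd. All 10 were found among the 55487 genes of the deposited table, each with a single value per library. They were followed in mouse 3T3-L1 fibroblasts, which turn into adipocytes when induced with hormones, at 3 stages: as preadipocytes (Pre), at mitotic clonal expansion (MCE) and after differentiation (Diff). At each stage 1 line carried a control hairpin (shScram) and the other a hairpin against Fto (shFto), the gene of an RNA demethylase. Each of the 6 groups had 2 libraries of RNA that had been fragmented before sequencing. Both lines were induced with IBMX, dexamethasone and insulin. Per the methods, this lasted 3 days and was followed by medium with insulin but without the other 2. Preadipocytes precede the induction, so comparisons between stages also differ in the medium. Both lines were made by lentiviral infection and puromycin selection. Each arm is thus a selected population, and an effect of the hairpin cannot be told apart from another difference between the 2 selected populations. Which hairpin against Fto the libraries carried is not given in the labels.

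Cyclooxygenases turn arachidonic acid, which phospholipases free from membranes, into the short-lived prostaglandin H. Terminal synthases then make single prostaglandins from it, which leave the cell and act on receptors of the same and of neighbouring cells. In fat cell precursors the pathway is known for acting in opposite ways. Prostaglandin F and prostaglandin E are known to hold differentiation back through their receptors, whereas prostacyclin is known to favour it through its own receptor, and products of prostaglandin D have been described as ligands of PPARγ, the master regulator of adipogenesis. Of the inducers, IBMX raises cyclic AMP and dexamethasone is a glucocorticoid, a class of hormone known to restrain cyclooxygenase-2.

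The start regions of 5 members are printed because they are the genes that carry the results below: both cyclooxygenases, and Ptges, Ptgfr and Ptgds, whose levels had the largest changes between stages on the log2(TPM + 1) scale used below. Each window runs from 250 bases before to 50 bases after the RefSeq start on GRCm38.p6, read 5′ to 3′ on the strand of the gene. RefSeq gave such a window for 9 of the 10 members, and Ptgis had none. Capitals mark the motifs found on either strand. The motifs searched were the cyclic AMP response half-site CGTCA, the TATA box TATAAA, the E-box CACGTG, the C/EBP site TTGCGCAA and its half-site GCAAT, the nuclear receptor half-site AGGTCA, the glucocorticoid response half-site TGTTCT and the NF-kB site.
Ptgs2 promoter window: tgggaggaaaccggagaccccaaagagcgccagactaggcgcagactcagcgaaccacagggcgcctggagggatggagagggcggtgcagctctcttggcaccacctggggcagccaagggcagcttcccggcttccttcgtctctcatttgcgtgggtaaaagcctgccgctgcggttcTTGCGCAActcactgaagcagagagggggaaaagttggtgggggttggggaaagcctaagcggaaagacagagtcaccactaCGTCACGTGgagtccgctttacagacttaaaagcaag
Ptgs1 promoter window: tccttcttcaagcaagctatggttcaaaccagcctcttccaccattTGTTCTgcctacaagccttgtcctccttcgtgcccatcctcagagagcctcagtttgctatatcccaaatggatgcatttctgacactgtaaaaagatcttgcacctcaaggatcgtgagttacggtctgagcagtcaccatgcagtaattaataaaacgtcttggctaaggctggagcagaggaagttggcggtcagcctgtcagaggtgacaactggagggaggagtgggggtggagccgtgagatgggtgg
Ptges promoter window: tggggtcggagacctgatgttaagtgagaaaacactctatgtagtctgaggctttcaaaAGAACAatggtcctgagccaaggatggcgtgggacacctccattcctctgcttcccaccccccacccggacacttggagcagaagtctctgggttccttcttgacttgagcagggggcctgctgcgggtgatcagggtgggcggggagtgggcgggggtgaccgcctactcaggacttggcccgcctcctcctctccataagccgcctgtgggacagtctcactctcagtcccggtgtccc
Ptgfr promoter window: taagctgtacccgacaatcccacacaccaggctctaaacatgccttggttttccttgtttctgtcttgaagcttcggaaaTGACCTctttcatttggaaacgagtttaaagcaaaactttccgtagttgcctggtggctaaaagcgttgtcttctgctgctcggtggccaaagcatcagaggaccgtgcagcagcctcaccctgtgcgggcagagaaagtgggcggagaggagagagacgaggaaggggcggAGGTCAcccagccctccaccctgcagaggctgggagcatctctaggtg
Ptgds promoter window: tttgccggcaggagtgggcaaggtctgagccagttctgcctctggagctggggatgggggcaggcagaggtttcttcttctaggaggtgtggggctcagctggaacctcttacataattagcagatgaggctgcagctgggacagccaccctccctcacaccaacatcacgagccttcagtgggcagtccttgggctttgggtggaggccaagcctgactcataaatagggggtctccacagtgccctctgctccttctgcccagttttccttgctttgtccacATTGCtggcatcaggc

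The Ptgs2 window lies at chr1:150099781-150100080 on the plus strand. It holds the full C/EBP site at bases -69 to -62, counted from the annotated start, and the cyclic AMP half-site at bases 14 to 18, which overlaps an E-box at bases 17 to 22. Where transcription starts in these cells was not examined, so positions relative to the start in use are unknown. Among 32851 RefSeq windows of 300 bases, 0.18% held the full C/EBP site, 20.8% the cyclic AMP half-site and 7.15% the E-box. The Ptgs1 window (chr2:36230176-36230475, plus strand) shared none of these 3 motifs and held 1 glucocorticoid half-site at bases -204 to -199. In the Ptges window (chr2:30903248-30903547, minus strand) that half-site was read on the opposite strand at bases -191 to -186. It occurred in 19.0% of all windows. The Ptgfr window (chr3:151837479-151837778, minus strand) held the nuclear receptor half-site at bases -170 to -165 and at bases 3 to 8, where 16.3% of all windows held at least 1. The Ptgds window (chr2:25469700-25469999, minus strand) held 1 C/EBP half-site at bases 35 to 39, a motif of 26.4% of windows. The TATA box letters were found in the window of Hpgd at bases 5 to 10, after the annotated start, and anywhere in 13.6% of all windows. The NF-kB site was in 0.16% of all windows and in no member's window. The Ptgs2 window had 16 CpG pairs and the Ptgds window 2, where the median window had 7.

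Values are TPM, a share of all transcripts corrected for gene length, so levels of different genes can be set side by side but the depth of each library is unknown. Between 20853 and 24018 genes were above 0 in a library. The targeted gene, Fto, ranged from 52.7 to 73.5 TPM in shScram libraries and from 5.51 to 7.47 TPM where the shFto hairpin was present, 9.96% to 10.8% of the control mean. The 2 libraries of shScram Pre were further apart than the pairs of the other groups. Their log2(TPM + 1) values correlated at r = 0.939 over genes, against 0.990 to 0.993 elsewhere. This correlation does not show which of the 2 libraries deviates. Replicate 1 of shScram Diff carries shScram in its title but the knockdown in its treatment entry, and was grouped by the title. It held 73.5 TPM of Fto, beside 70.8 TPM in its replicate and 7.47 and 7.05 TPM in the shFto Diff libraries, so its Fto level was that of a control library. Fibroblast markers summed to 2680 to 7700 TPM in every library. The defining markers of endothelial cells were each under 1 TPM in every library, those of mast cells were listed at 0, and of 6 macrophage markers 3, among them Ptprc, never reached 1 TPM.

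Of the 10 members, 8 reached 1 TPM in at least 2 libraries and were tested with limma on log2(TPM + 1) among 15968 genes. A gene was called at a Benjamini-Hochberg adjusted p under 0.05 over all of these genes, and fold changes on this scale understate those of genes with low TPM. Ptger2 and Hpgd did not pass and are given as levels only. The plot of the members by library shows how far the lines and stages were apart.

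**Figure D1:**
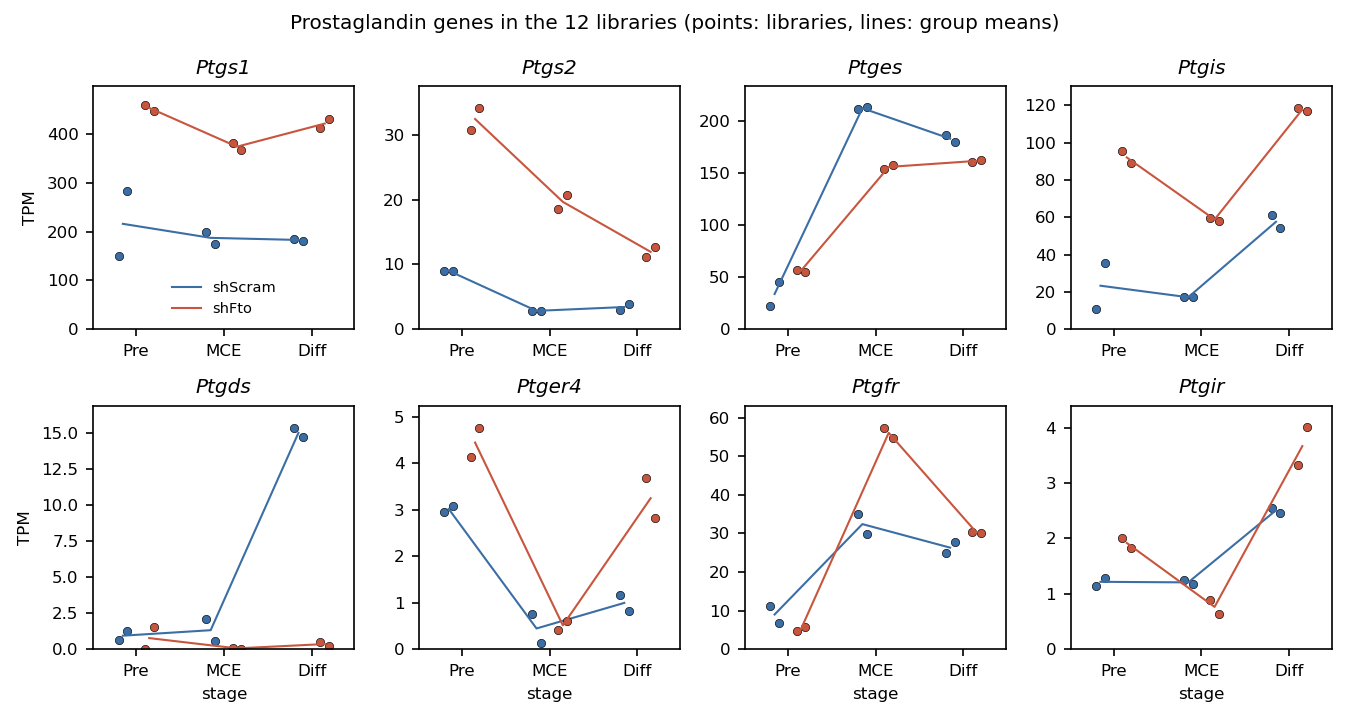
TPM (vertical axes, from 0, a separate scale for each gene) of the 8 prostaglandin genes that passed the filter on low values, at the Pre, MCE and Diff stages. Points are single libraries, 2 per group, shScram in blue and shFto in red, and lines join group means. Both cyclooxygenases were higher in every shFto library than in every shScram library of the same stage, and Ptgds exceeded 14 TPM in the shScram Diff libraries alone.

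The cyclooxygenases were higher in shFto than in shScram cells at all 3 stages. Ptgs1 (ENSMUSG00000047250, chr2:36230426-36252272, plus strand) encodes cyclooxygenase-1, the enzyme usually present at a steady level. In shScram cells it held 149 and 282 TPM at Pre, 199 and 175 TPM at MCE, and 186 and 180.2 TPM at Diff. In shFto cells it held 459 and 448 TPM at Pre, 381 and 367 TPM at MCE, and 412 and 431 TPM at Diff. The lowest shFto library lay above the highest shScram library of any stage, while the 3 shScram groups overlapped one another. On the log2 scale Ptgs1 rose with the knockdown by 1.14 (SE 0.24, adjusted p = 0.0120) at Pre, by 1.00 (SE 0.24, adjusted p = 0.0218) at MCE and by 1.20 (SE 0.24, adjusted p = 0.00825) at Diff. The ratios of the mean TPM were 2.1, 2.0 and 2.3. Between stages Ptgs1 passed the test in neither line, with log2 values of -0.14 and -0.28 from Pre to MCE (adjusted p = 0.679 in shScram and 0.445 in shFto cells). Without shScram Pre replicate 1, the lower of a pair far apart, the difference at Pre was 0.68 and the early step in shScram cells -0.59, while without replicate 2 that step was 0.32. Both of these steps were called, in opposite directions, so the reported -0.14 rests on 2 libraries that disagree. The call at Pre was lost without either shFto Pre library (adjusted p up to 0.0772), that at MCE without any 1 of its 4 libraries (up to 0.134) and that at Diff without shScram Diff replicate 2 or shFto Diff replicate 2 (up to 0.0604).

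Ptgs2 (ENSMUSG00000032487, chr1:150100031-150108227, plus strand) encodes cyclooxygenase-2, the form induced by growth factors and inflammatory signals. It held 9.01 and 9.03 TPM in shScram Pre, 2.86 and 2.81 TPM in shScram MCE, and 3.01 and 3.84 TPM in shScram Diff libraries. The shFto values were 30.7 and 34.1 TPM at Pre, 18.6 and 20.7 TPM at MCE, and 11.2 and 12.7 TPM at Diff. No group overlapped its neighbour in order of level, and even the shFto Diff libraries lay above the shScram Pre libraries. Ptgs2 rose with the knockdown by 1.74 at Pre (SE 0.15, adjusted p = 0.000194), by 2.43 at MCE (adjusted p = 2.2e-05) and by 1.55 at Diff (adjusted p = 0.000144), or 3.60, 6.93 and 3.48 times in mean TPM. The MCE and Diff values passed in every alternative run, including each of 12 fits that left out a library.

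Both lines had less Ptgs2 at MCE than at Pre, with a decrease of 1.39 in shScram cells (adjusted p = 0.000166) and of 0.70 in shFto cells (adjusted p = 0.00745) on the log2 scale. From MCE to Diff the gene fell further in shFto cells (log2 -0.67, adjusted p = 0.00993), whereas the value of shScram cells, 0.20, did not pass (adjusted p = 0.353). The 2 steps did not pass the test of a difference between the lines (0.69 for the early step, adjusted p = 0.0998, and -0.88 for the late step, adjusted p = 0.0700). The late one was called when only its own libraries were fitted and without either shScram Pre library, and the early one without shScram Pre replicate 2. Without shFto Pre replicate 2 or shFto MCE replicate 1 the early fall in shFto cells was no longer called, nor was the late fall without shFto MCE replicate 2 or shFto Diff replicate 1 (adjusted p up to 0.0690 and 0.0879).

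Ptgs2 remained the minor form by TPM in every library. It made up 5.69% and 3.10% of the summed cyclooxygenase TPM in shScram Pre and 6.27% and 7.09% in shFto Pre libraries. At MCE the shares were 1.41% and 1.58% in shScram and 4.65% and 5.34% in shFto libraries. At Diff they were 1.60% and 2.09% in shScram against 2.64% and 2.87% in shFto libraries. The summed cyclooxygenase TPM was 158 to 291 over the shScram and 388 to 490 over the shFto libraries. No test was run on these ratios.

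**Figure D2:**
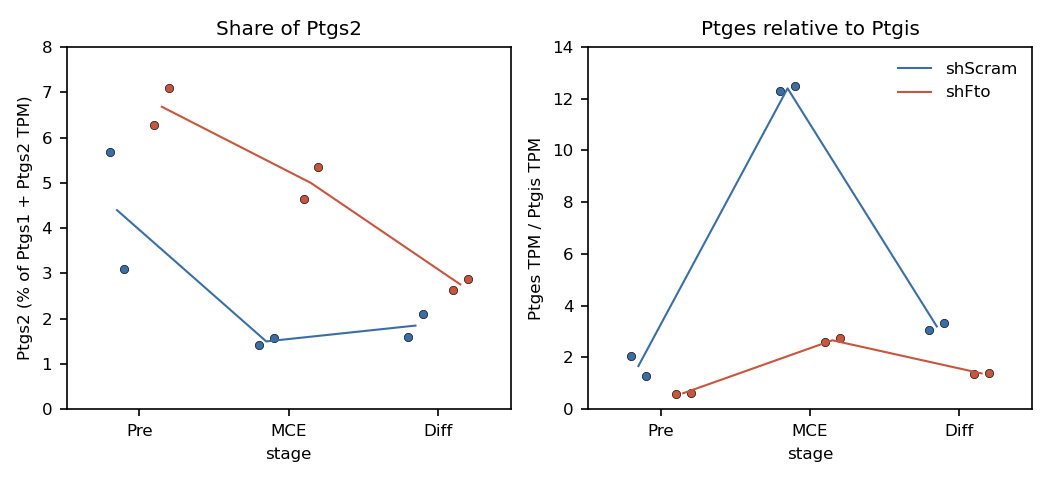
Left, Ptgs2 as a percentage of the summed TPM of Ptgs1 and Ptgs2; right, the ratio of Ptges TPM to Ptgis TPM, at the Pre, MCE and Diff stages, both axes from 0. Points are single libraries, shScram in blue and shFto in red, and lines join group means; the ratio reached 12.3 and 12.5 in shScram MCE libraries and 2.59 and 2.73 in shFto MCE libraries.

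The terminal synthases each behaved in their own way. Ptges (ENSMUSG00000050737, chr2:30889471-30929863, minus strand; the RefSeq start used for its window lies inside this span) encodes the inducible microsomal prostaglandin E synthase. Its TPM was 22.8 and 45.1 in shScram Pre, 212 and 213 in shScram MCE, and 187 and 180.0 in shScram Diff libraries. In shFto cells it was 57.2 and 55.3 at Pre, 154 and 158 at MCE, and 161 and 163 at Diff. Pre libraries of both lines lay well below all later ones, and the order of the lines turned between Pre and MCE. Ptges rose from Pre to MCE by 2.69 (SE 0.25, adjusted p = 7.28e-05) in shScram and by 1.46 (SE 0.25, adjusted p = 0.00228) in shFto cells, or 6.27 and 2.78 times in mean TPM. The difference between these steps, -1.23 (SE 0.35), did not pass (adjusted p = 0.0815). It was called with median-ratio scaling and without either shScram Pre library, at -0.76 without replicate 1 and -1.71 without replicate 2 (adjusted p 7.41e-07 to 0.239 over the 12 such fits).

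At Pre, Ptges was 1.66 times as high in shFto as in shScram cells (log2 0.79, SE 0.25, adjusted p = 0.0424). This call held in 2 of the 12 fits that left out a library, those without either shScram Pre library, and without shScram Pre replicate 1 the log2 value was 0.31. At MCE and Diff the shFto libraries lay below the shScram libraries without overlap, but the log2 values of -0.44 and -0.18 did not pass (adjusted p = 0.274 and 0.670). Without shScram Pre replicate 1 or replicate 2, whose spread enters the shared estimate, both were called, the values themselves being the same.

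Ptgis (ENSMUSG00000017969, chr2:167191805-167240604, minus strand), the prostacyclin synthase, was higher in shFto than in shScram libraries at every stage. It held 11.1 and 35.5 TPM in shScram Pre against 95.2 and 88.8 TPM in shFto Pre libraries. The MCE values were 17.2 and 17.1 TPM for shScram against 59.6 and 57.9 TPM for shFto. The Diff values were 61.0 and 54.1 TPM for shScram against 119 and 117 TPM for shFto. The shScram Diff libraries had thus reached the level of shFto MCE libraries, and those groups overlapped. Ptgis rose with the knockdown by 2.14 (SE 0.39, adjusted p = 0.00664) at Pre and by 1.72 (SE 0.39, adjusted p = 0.0169) at MCE, whereas 1.02 at Diff did not pass (adjusted p = 0.103) although the groups were apart. It rose from MCE to Diff in shScram cells by 1.69 (adjusted p = 0.0148), and the value of 0.99 in shFto cells did not pass (adjusted p = 0.0963). Both values that did not pass were called when only the libraries of the comparison were fitted and without either shScram Pre library, with values of 1.02 and 0.99 without replicate 1.

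The 2 shScram Pre libraries of Ptgis were far apart. Without replicate 1 the difference at Pre was 1.35 and the early step in shScram cells -1.01, whereas without replicate 2 that step was 0.59. Both of these steps were called, in opposite directions. The late rise in shScram cells was lost when any 1 of the 4 libraries compared was left out (adjusted p up to 0.0846), and so was the difference at MCE (up to 0.0954). The difference at Pre was lost without shFto Pre replicate 1 (adjusted p = 0.0540, the highest of the 12 such fits, which went down to 1.3e-08).

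Set side by side per length, Ptges exceeded Ptgis in shScram Pre libraries (ratios of 2.06 and 1.27), whereas Ptgis exceeded Ptges in shFto Pre libraries (0.601 and 0.623). At MCE Ptges led in both lines, by 12.3 and 12.5 times in shScram and by 2.59 and 2.73 times in shFto libraries. At Diff the ratios came to 3.06 and 3.33 in shScram and 1.36 and 1.40 in shFto libraries. The plot of the balances shows both lines peaking at MCE, the shScram line well above. These ratios are descriptions without a test.

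Ptgds (ENSMUSG00000015090, chr2:25466709-25470046, minus strand), the lipocalin-type prostaglandin D synthase, also secreted as a carrier of small lipids, was the member with the widest gap between the lines at Diff. It held 15.3 and 14.7 TPM in shScram Diff libraries and 0.477 and 0.223 TPM in shFto Diff libraries. At the earlier stages no library exceeded 2.06 TPM, with 0.621 and 1.24 TPM in shScram Pre, 2.06 and 0.568 TPM in shScram MCE, 0 and 1.52 TPM in shFto Pre, and 0.0981 and 0 TPM in shFto MCE libraries. The gene was thus near the lower limit of the filter in 10 of 12 libraries. It rose from MCE to Diff in shScram cells by 2.87 (SE 0.43, adjusted p = 0.00211), and at Diff it was lower in shFto cells (log2 -3.58, adjusted p = 0.000583). Both calls passed in every alternative that tested the gene. In shFto cells the late step was 0.36 (adjusted p = 0.601), and the difference of the steps between the lines, -2.51 (SE 0.61), did not pass (adjusted p = 0.0770). It was called when the libraries of that comparison alone were fitted, and when any 1 of the 4 Pre libraries was left out (adjusted p 0.0159 to 0.249 over the 12 such fits).

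Markers of adipocytes also differed between the lines at Diff. The summed TPM of Adipoq, Fabp4, Cd36, Plin1, Cidec and Lpl was 121 to 182 in shScram Pre, 336 to 340 in shScram MCE and 1470 to 1480 in shScram Diff libraries. In shFto cells it was 256 to 288 at Pre, 248 to 259 at MCE and 395 to 432 at Diff. Lpl made up most of each shFto sum, with 247 and 281 TPM in the Pre libraries. There 4 of the 6 markers were under 1 TPM, as in shScram Pre libraries. By mean TPM at Diff, shScram first, Lpl was 318 against 276. The lines were further apart in proportion for Fabp4 (856 against 128), Adipoq (74.8 against 4.86) and Cd36 (150 against 1.97). The same held for Plin1 (37.0 against 2.43) and Cidec (36.9 against 1.20). From MCE to Diff in shFto cells the mean rose for Fabp4 (48.4 to 128 TPM), Lpl (197 to 276 TPM), Adipoq (1.12 to 4.86 TPM) and Cd36 (1.38 to 1.97 TPM, libraries overlapping). It did not rise for Plin1 (2.49 and 2.43 TPM) or Cidec (2.92 and 1.20 TPM). The part of the marker difference between the lines in the Ptgds result was not tested. Nor was its part tested in the other differences between the lines at Diff or in the late steps. In these bulk samples fewer adipocytes and less RNA per cell cannot be told apart. By TPM Ptgds was 5.82% and 5.91% of the 3 synthases together in shScram Diff libraries, against 0.170% and 0.0797% in shFto Diff libraries.

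Among the receptors, Ptgfr (ENSMUSG00000028036, chr3:151796502-151837630, minus strand), the receptor of prostaglandin F, was the most abundant by TPM. Its shScram libraries held 11.3 and 6.67 TPM at Pre, 35.1 and 29.8 TPM at MCE, and 24.9 and 27.8 TPM at Diff. Its shFto libraries held 4.58 and 5.74 TPM at Pre, 57.5 and 54.8 TPM at MCE, and 30.4 and 30.15 TPM at Diff. The shFto line thus had the lowest libraries at Pre and the highest at MCE. From Pre to MCE Ptgfr rose by 1.78 (SE 0.21, adjusted p = 0.000335) in shScram and by 3.22 (SE 0.21, adjusted p = 1.28e-05) in shFto cells, or 3.61 and 10.9 times in mean TPM. The rise was larger in shFto cells by 1.44 (SE 0.30, adjusted p = 0.0312), the only member for which a step differed between the lines in the reported fit. From MCE to Diff it fell in shFto cells by 0.87 (adjusted p = 0.0165), while -0.29 in shScram cells did not pass (adjusted p = 0.358).

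Between the lines, Ptgfr was lower in shFto cells at Pre (log2 -0.66, adjusted p = 0.0474) and higher at MCE (0.78, adjusted p = 0.0361), and at Diff 0.20 did not pass (adjusted p = 0.573). These 3 calls were narrow. Of the 12 fits that left out a library, 1 kept the difference at Pre (that without shScram Pre replicate 2), and 2 kept that at MCE and that of the early step (those without either shScram Pre library), with adjusted p up to 0.225, 0.199 and 0.132. The difference at MCE was also lost with median-ratio scaling and with quantile normalization. Without shScram Pre replicate 1 the log2 values were -0.32 at Pre and 1.10 for the difference of the early steps. The late fall in shFto cells was lost without any 1 of its 4 libraries (adjusted p up to 0.0954), whereas the rise in shFto cells at MCE was called in every alternative.

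Ptger4 (ENSMUSG00000039942, chr15:5206661-5244187, minus strand) encodes a prostaglandin E receptor that raises cyclic AMP. It held 2.96 and 3.07 TPM in shScram Pre and 4.13 and 4.75 TPM in shFto Pre libraries. At MCE the shScram libraries held 0.751 and 0.136 TPM and the shFto libraries 0.408 and 0.613 TPM, so that the lines overlapped. The Diff libraries held 1.16 and 0.824 TPM with shScram but 3.67 and 2.82 TPM with shFto. Ptger4 fell from Pre to MCE by 1.51 (adjusted p = 0.00119) in shScram and by 1.85 (adjusted p = 0.000415) in shFto cells. It rose again from MCE to Diff in shFto cells by 1.49 (SE 0.23, adjusted p = 0.00192), and 0.49 in shScram cells did not pass (adjusted p = 0.148). At Diff it was higher in shFto cells by 1.09 (SE 0.23, adjusted p = 0.00975), a call lost with a pseudocount of 0.1 (adjusted p = 0.0689, the highest of the 8 settings that tested the gene) and without shScram Diff replicate 2 or shFto Diff replicate 1 (up to 0.0785). The late step was not shown to differ between the lines (0.99, adjusted p = 0.173). Ptger4 shares 82 of its 6648 exonic bases with Ttc33 on the opposite strand, which held 15.7 to 36.2 TPM, and whether counting used strand is not stated, so its low values are uncertain.

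Ptgir (ENSMUSG00000043017, chr7:16906490-16910905, plus strand), the prostacyclin receptor, stayed at or under 4.02 TPM. It held 1.14 and 1.29 TPM in shScram Pre, 1.24 and 1.17 TPM in shScram MCE, and 2.55 and 2.46 TPM in shScram Diff libraries. In shFto cells it held 2.01 and 1.82 TPM at Pre, 0.885 and 0.639 TPM at MCE, and 3.32 and 4.02 TPM at Diff. The shFto line was thus above shScram at Pre and Diff and below it at MCE, without overlap, but none of these differences passed (log2 0.40, -0.33 and 0.41, adjusted p = 0.0820, 0.196 and 0.0990). From Pre to MCE Ptgir fell in shFto cells by 0.73 (adjusted p = 0.00750). From MCE to Diff it rose in both lines, by 0.67 in shScram (adjusted p = 0.0144) and by 1.40 in shFto cells (adjusted p = 0.000389). The rise in shScram cells was lost without any 1 of its 4 libraries (adjusted p up to 0.0849), and the fall in shFto cells without shFto MCE replicate 2 (0.0716). With quantile normalization neither was called (adjusted p = 0.379 and 0.116, the highest of the 8 settings that kept the libraries and tested the gene).

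The other members were at or near 0. Ptger2 (ENSMUSG00000037759, chr14:44988195-45003820, plus strand), a second prostaglandin E receptor that raises cyclic AMP, held 0.158 and 0.0372 TPM in shScram Pre and 0.257 and 0.253 TPM in shFto Pre libraries. It was listed at 0 in both shFto MCE and both shScram Diff libraries, and no library exceeded the 0.257 TPM of Pre. Hpgd (ENSMUSG00000031613, chr8:56294585-56321043, plus strand), which oxidises prostaglandins as the first step of their breakdown, was listed at 0 in 10 of 12 libraries. The exceptions were 0.0548 TPM in shScram Diff replicate 1 and 0.156 TPM in shFto Diff replicate 2.

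Counted over the 8 members tested, 4 rose with the knockdown at Pre (Ptgs1, Ptgs2, Ptges and Ptgis) and 1 fell (Ptgfr), where 15.9% of all tested genes were called higher and 12.3% lower. At MCE 4 rose (Ptgs1, Ptgs2, Ptgis and Ptgfr) and none fell, where 10.5% of all genes were called higher and 7.26% lower; at an unadjusted p under 0.05 by limma 5 members passed in either direction. At Diff 3 rose (Ptgs1, Ptgs2 and Ptger4) and 1 fell (Ptgds), against 11.9% and 9.31% of all genes. The median log2 value of the members was 0.61, 0.44 and 0.71 at the successive stages, and that of all genes 0.08, 0.05 and 0.03. The 3 comparisons rest on different libraries but on 1 shared estimate of the spread. With the 4 libraries of the Pre comparison alone none of the members was called at Pre, and none of all 15968 genes, although 2790 had an unadjusted p under 0.05. The plot of knockdown differences sets the stages side by side.

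**Figure D3:**
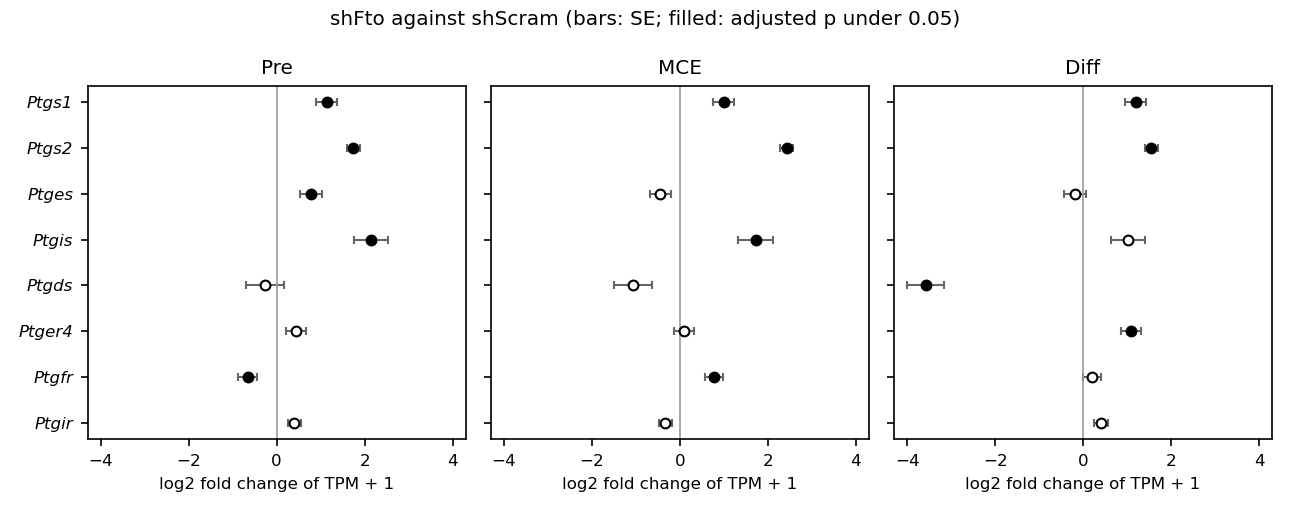
Difference between shFto and shScram cells on the log2(TPM + 1) scale (horizontal axis) for the 8 tested members at Pre, MCE and Diff. Circles are the fitted values with bars of 1 SE (limma, 2 libraries per group), filled where the adjusted p was under 0.05; Ptgs1 and Ptgs2 are filled to the right of 0 at every stage and Ptgds lies at -3.58 at Diff.

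Between stages, 2 members rose from Pre to MCE in shScram cells (Ptges and Ptgfr) and 2 fell (Ptgs2 and Ptger4), where 12.2% of all genes were called higher and 26.9% lower. In shFto cells the counts were 2 (Ptges and Ptgfr) and 3 (Ptgs2, Ptger4 and Ptgir), against 8.80% and 19.9%. With only the Pre and MCE libraries of shScram cells none of the 4 shScram calls passed (adjusted p 0.0508 to 0.0748), where 504 of all genes did. From MCE to Diff 3 rose in shScram cells (Ptgis, Ptgds and Ptgir) and none fell, where 20.0% of all genes were called higher and 5.22% lower, and 3 members had an unadjusted p under 0.05 by limma. In shFto cells 2 rose (Ptger4 and Ptgir) and 2 fell (Ptgs2 and Ptgfr), against 20.2% and 6.48%. The early step differed between the lines for 1 member (Ptgfr) and 5.11% of all genes. The late step differed for 0 members and 2.49% of all genes by limma, with 4 members at an unadjusted p under 0.05. That last count was 4 (Ptgs2, Ptgis, Ptgds and Ptgfr, each lower) when only the libraries of the comparison were fitted, a fit that called 2694 of the 15968 genes. The 2 steps of a line share its MCE libraries.

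All genes together were not centred on 0 between stages. Their median log2 value was -0.17 and -0.18 from Pre to MCE in shScram and shFto cells and 0.23 and 0.17 from MCE to Diff, and median-ratio scaling of the libraries moved each of these medians to within 0.01 of 0. On that scaling the rise to MCE was 2.91 and 1.69 for Ptges and 1.99 and 3.43 for Ptgfr in shScram and shFto cells. The values of Ptgs2 were -1.21 and -0.47. The late rise in shScram cells was 2.69 for Ptgds, 1.43 for Ptgis and 0.50 for Ptgir. None of the called member values changed sign under any alternative.

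**Figure D4:**
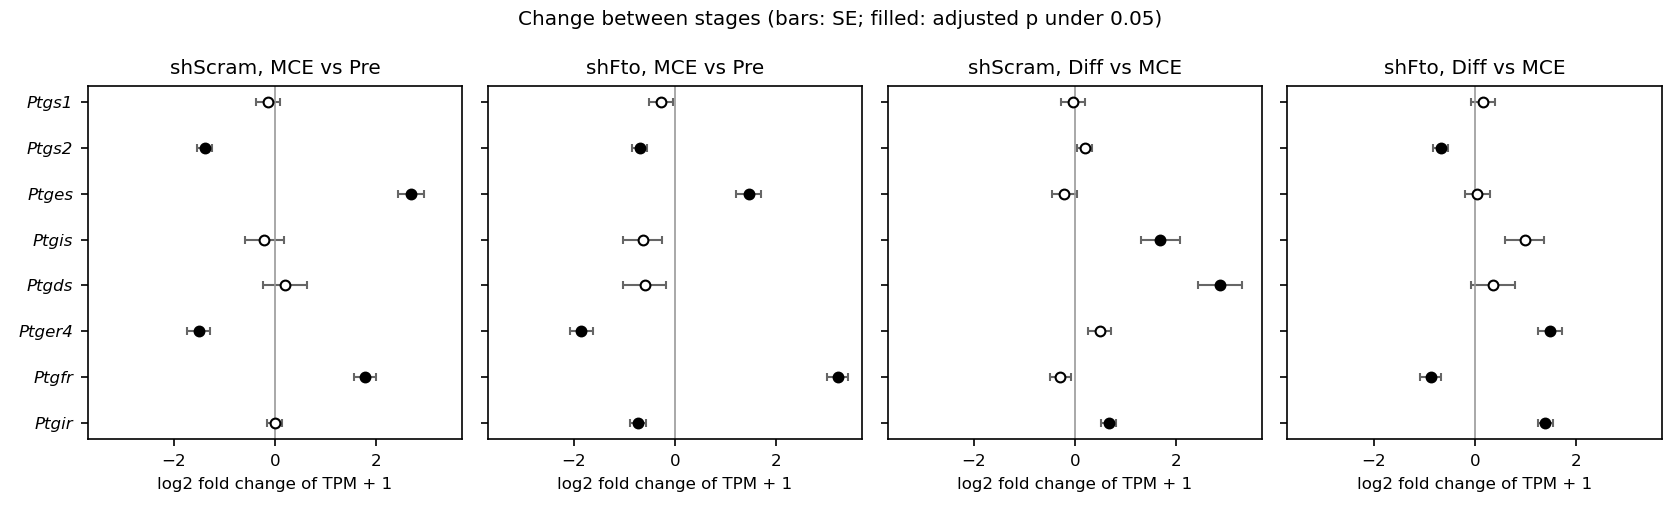
Difference between stages on the log2(TPM + 1) scale (horizontal axis) for the 8 tested members, from Pre to MCE and from MCE to Diff in shScram and in shFto cells. Circles are the fitted values with bars of 1 SE (limma, 2 libraries per group), filled where the adjusted p was under 0.05; Ptges and Ptgfr lie to the right of 0 from Pre to MCE in both lines, and Ptgds lies at 2.87 from MCE to Diff in shScram cells against 0.36 in shFto cells.

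The rest of the pathway was read from a list of 29 further genes, of which 21 passed the filter. With the knockdown 8 of them rose and 1 fell at Pre, where 15.9% of all tested genes were called higher and 12.3% lower. At MCE 3 rose and 2 fell, against 10.5% and 7.26% of all genes, and at Diff 5 rose and 2 fell, against 11.9% and 9.31%. The median log2 values of the 21 genes were 0.77, 0.09 and 0.09 at these stages, and those of all genes 0.08, 0.05 and 0.03. From Pre to MCE 5 rose and 4 fell in shScram cells, against 12.2% and 26.9% of all genes. In shFto cells 2 rose and 9 fell at this step, against 8.80% and 19.9%. From MCE to Diff 3 rose and 2 fell in shScram cells, against 20.0% and 5.22% of all genes. In shFto cells 2 rose and 1 fell at this step, against 20.2% and 6.48%. The early step differed between the lines for 4 of the 21 genes and 5.11% of all genes. It was higher in shFto cells for Ptges3 and lower for Pla2g15, Abcc4 and Slco3a1. Of the 12 fits that left out a library, 2 kept the calls of Ptges3 and of Pla2g15, 3 that of Abcc4 and 7 that of Slco3a1. The late step differed for 0 of the 21 genes and 2.49% of all genes by limma, with 2 of the 21 at an unadjusted p under 0.05.

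Of the phospholipases, Pla2g4a, the cytosolic enzyme that frees arachidonic acid, fell from 54.9 and 40.0 TPM in shScram Pre to 14.5 and 14.8 TPM in shScram MCE libraries (log2 -1.61, adjusted p = 0.000135). Pla2g4a fell from Pre to MCE in shFto cells as well (-0.91, adjusted p = 0.00334). It was higher in shFto cells at MCE, with 31.2 and 30.2 TPM (1.02, adjusted p = 0.00333), and at Diff (0.77, adjusted p = 0.0110). Anxa1, a glucocorticoid-regulated protein known to restrain phospholipase activity, fell from Pre to MCE in shScram cells, from 1089 and 849 to 401 and 380 TPM (-1.30, adjusted p = 0.000188), and was lower in shFto cells at Pre and MCE (-0.71 and -0.67, adjusted p = 0.00937 and 0.0116), the latter lost without any 1 of the 4 MCE libraries (up to 0.0851). In shFto cells Anxa1 also fell from Pre to MCE (-1.26, adjusted p = 0.000246). Pla2g15, a lysosomal phospholipase, rose from 13.4 and 35.2 to 108 and 101 TPM in shScram cells at MCE (2.21, adjusted p = 0.00115). Pla2g6, a calcium-independent phospholipase, was higher in shFto Pre than in shScram Pre libraries, with 26.7 and 28.5 against 6.62 and 17.6 TPM (1.26, adjusted p = 0.0240). Pla2g4b fell from Pre to MCE in shFto cells (-1.16, adjusted p = 0.0423), but 10 of 20 alternatives kept the call (adjusted p up to 0.230). It also shares 3878 of 5831 exonic bases with Gm28042 on the same strand, and its value is uncertain.

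Akr1b3, the aldose reductase that can also make prostaglandin F, was the synthase of this list with the clearest values. It held 140 and 176 TPM in shScram Pre, 568 and 672 TPM in shScram MCE, and 286 and 283 TPM in shScram Diff libraries, and 411 and 363, 1083 and 1040, and 733 and 743 TPM in the shFto libraries of these stages. It rose at MCE in both lines (1.97 in shScram and 1.46 in shFto cells, adjusted p = 2.08e-05 and 0.000124). It was also higher in shFto cells at each stage, by 1.29, 0.78 and 1.37 (adjusted p = 0.000729, 0.00621 and 0.000269). Ptgfr and Akr1b3 thus both had their highest mean TPM at MCE in both lines. For Ptgfr the later fall in shScram cells did not pass (log2 -0.29, adjusted p = 0.358 by limma). The related Akr1b7 fell at MCE in shFto cells from 7.77 and 8.59 to 1.51 and 2.15 TPM (-1.70, adjusted p = 0.00189). It fell in shScram cells as well (-1.36, adjusted p = 0.00531), and its steps were not shown to differ between the lines (-0.34, adjusted p = 0.593). Ptges2, another prostaglandin E synthase, rose in shScram cells at MCE from 4.31 and 8.82 to 13.5 and 14.8 TPM (1.07, adjusted p = 0.0101). Ptges3, the co-chaperone p23 with the same reported activity, was higher in shFto cells at MCE and Diff (0.65 and 0.54, adjusted p = 0.00702 and 0.0145).

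Of the other receptors, Tbxa2r, the thromboxane receptor, held 3.18 and 2.39 TPM in shFto Pre and 0 and 0.713 TPM in shScram Pre libraries (1.53, adjusted p = 0.00816). Ptgdr was listed at 0 in every library. Abcc4, an exporter of prostaglandins, was lower in shFto cells at MCE, with 10.2 and 10.1 against 25.1 and 20.1 TPM (-1.07, adjusted p = 0.00102), and at Diff (-0.69, adjusted p = 0.00778). The transporter Slco3a1 was higher in shFto cells at Pre, with 33.0 and 33.0 in place of the 11 and 17.6 TPM of shScram cells (1.19, adjusted p = 0.00419), and lower at Diff (-0.95, adjusted p = 0.00886). Ptgfrn, a membrane protein that associates with the prostaglandin F receptor, was higher in shFto cells at Pre, with 58.8 and 61.0 against 21.3 and 35.7 TPM (1.09, adjusted p = 0.00695), and at Diff (0.86, adjusted p = 0.0168), a call lost without any 1 of the 4 Diff libraries (up to 0.112). Ptgr1, which reduces prostaglandin breakdown products, was higher in shFto cells at Diff (0.70, adjusted p = 0.00898). Without shScram Pre replicate 1 the differences at Pre were 0.62 for Pla2g6, 1.14 for Tbxa2r, 0.87 for Slco3a1 and 0.73 for Ptgfrn, and the early rises in shScram cells 1.54 for Pla2g15 and 0.62 for Ptges2. Without at least 1 of the 4 Diff libraries the calls at Diff were lost for Pla2g4a, Ptges3, Abcc4, Slco3a1 and Ptgr1 (adjusted p up to 0.0969, 0.113, 0.0700, 0.0767 and 0.0798), and without at least 1 MCE library those at MCE for Ptges3 and Akr1b3 (up to 0.0661 and 0.0590). Without shFto Pre replicate 1 the calls at Pre were lost for Pla2g6, Anxa1 and Tbxa2r, for Pla2g6 also without replicate 2 (up to 0.104, 0.0719 and 0.0687).

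Among 10799 tested genes with a mean of at least 5 TPM, those whose log2(TPM + 1) over the 12 libraries was most like a member's were found by Pearson's r, as a description in which the 6 groups set most of the spread. For Ptgs1 they were Trpc4ap (r = 0.983) and Rab4b (0.982), and for Ptgs2 Ak1 (0.987) and Spred2 (0.977). For Ptges they were Lrp5 (0.990) and Rasa3 (0.988), for Ptgis Stx5a (0.988) and Cacnb3 (0.982), and for Ptgds Itpr1 (0.965) and Slc35e3 (0.953). For the receptors they were Abhd5 (0.987) and Gnptab (0.984) for Ptgfr, Oas2 (0.967) and Dzip1l (0.966) for Ptger4, and Zcchc8 (0.972) and Adamts1 (0.963) for Ptgir. Pearson's r does not weigh the size of a change. Trpc4ap ranged only from 115 to 166 TPM, where Ptgs1 ranged from 149 to 459 TPM. Lrp5 ranged widely, from 19.2 to 302 TPM, as did Ptges, from 22.8 to 213 TPM.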

How the data were processed

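Total RNA of 3T3-L1 cells was fragmented and sequenced in 12 libraries, 2 in each of 6 groups assigned by their titles. Per the labels and the methods, the authors used Trim Galore 0.6.5 for trimming and HISAT2 2.1.0 for alignment to GRCm38, and the deposited TPM of each gene was computed by StringTie 2.1.4 on Ensembl release 102. Their DESeq2 1.30.1 results were not used here. Having 2 libraries per group limits the precision. TPM keeps no depth, so how many reads stand behind a low value is unknown. Nothing says that the libraries came from separate cultures, so p-values may measure technical spread only. Strand use in counting is not given in the sources used here.

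Genes with at least 1 TPM in at least 2 libraries entered a limma fit (3.58.1, R 4.3.3) on log2(TPM + 1), with a mean per group, all 12 libraries, 6 residual degrees of freedom and an eBayes trend, two-sided, with Benjamini-Hochberg adjustment over all genes tested. The test was checked on simulated data for the comparison of the lines at Pre. The simulation gave each gene the same spread in all groups, so it does not cover the wider spread of shScram Pre. Comparisons were the lines at each stage, successive stages in each line, and these steps between lines. Coordinates came from GENCODE M21, promoter windows from RefSeq. Pathway genes were named where called with a fold change over 2 in a comparison of 2 groups, in that of their largest change, and other called ones as examples. The result of 1 such gene is not reported here. The alternatives were 9 settings and 12 fits without 1 library. The members, lists and motifs were chosen with earlier results of these data known. Python 3.11.15 with pandas 2.3.3 was used for other steps.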

Additional observations from a re-analysis of the deposited data

Results flagged for a closer look

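The rise of Ptgfr from Pre to MCE differed between the lines. It was larger in shFto than in shScram cells by 1.44 on the log2(TPM + 1) scale (SE 0.30, adjusted p = 0.0312 by limma, tested as the difference of the steps). The libraries went from 4.58 and 5.74 to 57.5 and 54.8 TPM with shFto, and from 11.3 and 6.67 to 35.1 and 29.8 TPM with shScram. The difference was called in 7 of 21 alternatives, with adjusted p between 2.79e-05 and 0.132, and kept its direction in each.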

How the results depend on the processing

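Of 72 member results 30 were called. Of these, 9 were called in every alternative that tested the gene, and 0 of 621 alternatives gave a called result the opposite sign. By limma, the counts of members called moved as follows. With only the libraries of a comparison they went from 5 to 0 at Pre between the lines, from 4 to 0 for the early step in shScram cells, from 1 to 0 for the early step between the lines and from 0 to 4 for the late one. Without a filter on low values, which tests more genes, they were 1 at MCE between the lines and 0 for the early step between the lines. With a mean TPM of at least 5, which leaves 5 members, they were 2 at Diff between the lines, 1 and 2 for the late steps in shScram and shFto cells, and 3 for the early step in shFto cells. The early step between the lines gave 2 with median-ratio scaling and 0 with quantile normalization. The causes were not tested.

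Leaving out 1 library gave between 1 and 5 members called at Pre, between 1 and 5 at MCE and between 2 and 6 at Diff between the lines. The calls over all genes moved as well: without shScram Pre replicate 1, 6559 of 15803 genes were called at MCE and 7274 at Diff, in place of 2838 and 3391 of 15968. It gave between 1 and 4 for the late step in shScram cells, between 2 and 5 for that in shFto cells, between 0 and 6 for the early step between the lines and between 0 and 4 for the late one. Without any 1 MCE library, the count at MCE was 1.

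Values that had not passed changed sign in places. With median-ratio scaling the early step in shScram cells was 0.09 for Ptgs1, 0.003 for Ptgis and 0.12 for Ptgir, the late step there -0.01 for Ptgs2, and the late step in shFto cells -0.04 for Ptgs1 and -0.16 for Ptges. With quantile normalization the values were 0.24 for Ptgir early, 0.01 for Ptgs1 late and -0.23 for Ptgs2 late in shScram cells, and -0.01 for Ptgds late in shFto cells. Leaving out 1 library gave -0.93 to 0.41 for Ptgds between the lines at Pre and -0.22 to 0.41 for Ptger4 at MCE. For the early step in shScram cells it gave -0.59 to 0.32 for Ptgs1, -1.01 to 0.59 for Ptgis (both ends called for these 2 genes, without either shScram Pre library), -0.28 to 0.68 for Ptgds and -0.05 to 0.04 for Ptgir. It gave -0.12 to 0.06 for the late step of Ptgs1 in shScram cells, -1.27 to 0.07 for the early step of Ptgds in shFto cells, and -0.60 to 0.32 for Ptgs1 and -1.22 to 0.37 for Ptgis in the early step between the lines.

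Libraries were not paired by replicate number in the reported fit. Of 15 group pairs, 2 had deviations correlated over 0.1 (range -0.29 to 0.172, the lowest for shScram Pre with shScram Diff). This check cannot exclude a batch shared by libraries of some groups. With the replicate number as a block 26 of the 30 calls held, with 3 members called at Pre and 3 at MCE between the lines and 0 for the early step between the lines.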
